A study of Mus musculus with 18 samples.

Results

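The cells compared here were induced pluripotent stem cells (iPSCs) made with Oct4, EpCAM and EpEX, called OE + EpEX iPSCs, and mouse embryonic stem cells (mESCs). The samples were taken by their labels and make up 7 of the 18 arrays of the series, with 4 OE + EpEX clones and 3 mESC clones. The other arrays held 4 KE + EpEX iPSC clones, in which Klf4 stood in for Oct4, 4 OSKM iPSC clones and 3 samples of mouse embryonic fibroblasts (MEFs). The question was how far expression in OE + EpEX iPSCs lay from that in mESCs.

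The OE + EpEX clones came from E13.5 MEFs that had been nucleofected with PiggyBac vectors for doxycycline-inducible Oct4 and EpCAM, plated with feeder cells and treated with EpEX, the soluble extracellular domain of EpCAM. Doxycycline was given at 1.5 μg/mL for 21 days. By label every sample, mESCs and MEFs included, came from a cross of 2 Jackson strains. One carries the doxycycline-responsive transactivator rtTA at the ROSA26 locus. The other, B6.129S4-POU5f1tm2Jae/J, carries a GFP cassette behind the coding part of Pou5f1. All groups compared here therefore share both alleles by label. The sources used here do not say whether doxycycline or EpEX was still present when RNA was taken, nor whether feeder cells were removed. Each array is 1 sample of 1 clone, so p-values measure the spread between clones of a single line of work.

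Oct4 (Pou5f1), Sox2 and Nanog hold the regulatory network of pluripotent cells together, and each activates its own gene as well as the others. Around them lie genes such as Zfp42 (Rex1), Esrrb and Nr5a2 that mark the naive state, the state in which mESCs are held by leukemia inhibitory factor. A fibroblast that is reprogrammed shuts off matrix and mesenchymal genes, gains epithelial junctions and at last turns on the network from its own loci. EpCAM is an epithelial adhesion protein that is abundant on pluripotent cells.

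Values are on the log2 scale, and the authors had shifted each probe set to a median of 0 over the 18 arrays. A value of 1 thus means 2-fold above that probe set's median, and levels of different probe sets cannot be set against each other. A probe set was called when its limma adjusted p was under 0.05 and its groups differed by at least 1 log2 unit, that is 2-fold. Gene symbols were at hand for 931 of 45037 probe sets (2.07%), because the deposited lists name genes only where all 15 other arrays lay 10-fold or more from the MEF mean. Of these, 469 were higher and 462 lower than in MEFs. Named genes are therefore genes that separate fibroblasts from pluripotent cells, and every named gene lay on the pluripotent side in every OE + EpEX clone by that choice.

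Markers have a symbol here only where all arrays but the MEFs lay far from MEFs, so they could not go against the labels and are given as a description. Over 12 pluripotent stem cell markers, among them Pou5f1, Sox2, Nanog, Dppa5a and Cdh1, the mean value was −0.06 to 0.38 in the OE + EpEX clones, 0.72 to 0.74 in mESCs and −7.48 to −7.41 in MEFs. Over the 13 of 20 fibroblast markers with a symbol, among them Col1a1, Pdgfrb, Lum and Twist1, it was −0.18, 0.34 and −0.02 in OE + EpEX clones 2, 3 and 1, 1.01 in clone 4, −0.64 to −0.45 in mESCs and 4.59 to 6.68 in MEFs. Clone 4 thus stood above its group in fibroblast genes, and clone 3 stood nearest to mESCs over all probe sets, as described further on. A raised clone was not particular to OE + EpEX. Over the same fibroblast markers KE + EpEX clones 1 to 4 stood at 1.51, 0.53, −0.75 and −0.84, and the OSKM clones at −0.31 to −0.14.

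The 250 bases before the start of a gene were taken from RefSeq (GRCm38.p6). The sequences of Pou5f1 (chr17:35505782-35506031, + strand), Zfp42 (chr8:43307010-43307259, − strand) and Sfrp2 (chr3:83766071-83766320, + strand) are printed as examples from the lowest log2 differences described below. They are not the 3 lowest, since Slc9b1 was lower than Zfp42. For each gene a start was taken whose window holds the word marked, of 2 starts listed for Pou5f1 and 1 each for the others. The marked words are thus there by choice. Capitals mark the octamer ATGCAAAT or its reverse complement ATTTGCAT, the word that Oct factors read, in Zfp42 and Sfrp2, and the GC box GGGCGGGG, a word read by Sp and Klf factors, in Pou5f1.
Pou5f1: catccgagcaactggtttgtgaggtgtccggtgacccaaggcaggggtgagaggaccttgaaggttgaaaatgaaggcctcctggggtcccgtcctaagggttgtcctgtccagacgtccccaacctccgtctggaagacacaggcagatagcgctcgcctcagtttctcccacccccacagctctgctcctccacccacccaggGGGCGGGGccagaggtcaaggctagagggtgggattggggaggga
Zfp42: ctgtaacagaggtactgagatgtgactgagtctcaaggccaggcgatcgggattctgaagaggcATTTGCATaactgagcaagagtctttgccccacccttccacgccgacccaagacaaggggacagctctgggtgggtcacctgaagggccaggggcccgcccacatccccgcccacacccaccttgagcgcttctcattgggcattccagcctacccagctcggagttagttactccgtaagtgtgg
Sfrp2: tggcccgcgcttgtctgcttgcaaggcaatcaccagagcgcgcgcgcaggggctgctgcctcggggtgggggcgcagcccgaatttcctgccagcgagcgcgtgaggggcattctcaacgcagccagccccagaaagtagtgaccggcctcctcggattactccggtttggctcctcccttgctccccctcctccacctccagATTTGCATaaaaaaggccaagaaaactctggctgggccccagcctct
The GC box began 45 bases before the start of Pou5f1. The octamer began 186 bases before the start of Zfp42 and 47 bases before that of Sfrp2. On either strand it was present before 3 of the 16 called lower genes with a promoter in the table (Sfrp2, Tspan13 and Zfp42), before 1 of 41 called higher genes (Tnc) and in 1.6% of all 32851 promoters. The GC box or its reverse complement CCCCGCCC was present before 4 of these 16 and 10 of these 41 genes, and in 16.1% of all promoters. A called gene was counted when any of its listed starts held the word, whereas the shares over all promoters are per start. They are thus not like rates, and no excess is read from them. These counts describe letters in a short window and say nothing of binding. A promoter was listed for 16 of the 17 called lower symbols and for 41 of the 55 called higher ones.

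In all, 1561 probe sets (3.47%) were called between OE + EpEX iPSCs and mESCs, 947 higher (2.10%) and 614 lower (1.36%). Among the 931 probe sets with a symbol 88 were called (9.45%), 69 higher (7.41%) and 19 lower (2.04%). Values of the groups did not overlap at 84 of these 88 probe sets, against 24.2% of all probe sets. Since values so far apart are also those that pass the test, nothing is read from this count. On the list above MEFs, 22 were called higher and 16 lower. Of the 50 called on the list below MEFs, 47 were higher in OE + EpEX iPSCs and 3 were lower. With all 18 arrays in the fit, MEFs included, 37 of the 38 calls on the former list and 13 of the 50 on the latter were kept. That fit leaves each difference as it was and takes its SE from the spread within all groups. A call can thus be lost in it through the spread of MEF arrays, which take no part in the difference. With the 15 arrays other than MEFs in the fit, the named calls were 66, of which 47 were higher and 19 lower. With quantile normalization 17 of the 38 and 23 of the 50 were kept, and the named calls were 28 higher and 13 lower. Under a scaling of each array to its own median the named calls were 71 higher and 17 lower. Quantile normalization was run on values already shifted for each probe set. Their SD over probe sets ran from 0.211 to 0.422 between the 7 arrays, and the method makes it equal. It thus changes the differences themselves, so a call lost under it, here or below, cannot show by itself that the call depends on normalization.

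The named gene furthest below mESCs was Pou5f1, which encodes Oct4. Its values were 0.02, −0.17, 2.18 and −0.32 in OE + EpEX clones 1 to 4 and 5.62, 5.66 and 5.66 in mESC clones 1 to 3. All OE + EpEX clones lay below all mESC clones, and clone 3 lay more than 2 log2 units above its 3 sister clones. The log2 difference was −5.22 (SE 0.524, limma adjusted p = 0.000464), or 37.2-fold lower, against a MEF mean of −3.68. Without clone 3 the difference was −5.80 (limma adjusted p = 2.42e-07). With quantile normalization, under the limit given above, the difference of all clones was −3.27 and no longer passed (limma adjusted p = 0.116). KE + EpEX and OSKM iPSCs differed from the same mESC arrays by −5.75 and −5.52, so that the mESC clones stood above all 3 iPSC groups. The sources used here do not say whether this probe set also reads the transfected Oct4. By quantitative PCR of genes that include Oct4 and Rex1 (Zfp42), the paper found OE + EpEX iPSCs equal to its mESC line. It also reports similar Oct4 protein by Western blot. The array values of Pou5f1 and Zfp42 differ from those reports, and the reason was not tested.

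Zfp42, a zinc finger gene of naive cells also known as Rex1, was at −0.07, −0.24, 0.50 and 0.30 in OE + EpEX clones 1 to 4 and 1.95, 1.94 and 1.81 in mESC clones 1 to 3. Its groups did not overlap, and the clones lay within 1 log2 unit of each other (log2 difference −1.78, SE 0.171, limma adjusted p = 0.000406). Nr5a2, a nuclear receptor that binds the Pou5f1 gene, was at −0.05, −0.11, 0.36 and 0.45 in OE + EpEX clones 1 to 4 and 1.75, 1.86 and 1.62 in mESC clones 1 to 3. It differed by −1.58 (SE 0.155, limma adjusted p = 0.000422). Both calls held under all 15 alternatives run for single genes, which changed the normalization, the filter, the variance model, the arrays in the fit or the clones left out. These were the 3 members called of 12 measured core pluripotency transcription factors, all lower, where 2.33% of the named genes were called lower. The list's median log2 difference was −0.35, against 0.08 over the named genes and −0.03 over the probe sets of the list above MEFs.

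The partners of Oct4 were not called. Sox2 was at 0.02, −0.05, 0.36 and −0.15 in OE + EpEX clones 1 to 4 and 0.46, 0.24 and 0.44 in mESC clones 1 to 3, a difference of −0.33 (limma adjusted p = 0.153). Nanog was at 0.09, 0.26, 0.26 and 0.33 in OE + EpEX clones 1 to 4 and −0.02, −0.11 and −0.01 in mESC clones 1 to 3, a difference of 0.28 (limma adjusted p = 0.0949), and Sall4 differed by 0.12 (limma adjusted p = 0.461). None of these 3 passed the test. Without clone 3, Sox2 differed by −0.43 and had a limma adjusted p = 0.0305, still short of 2-fold.

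**Figure D1:**
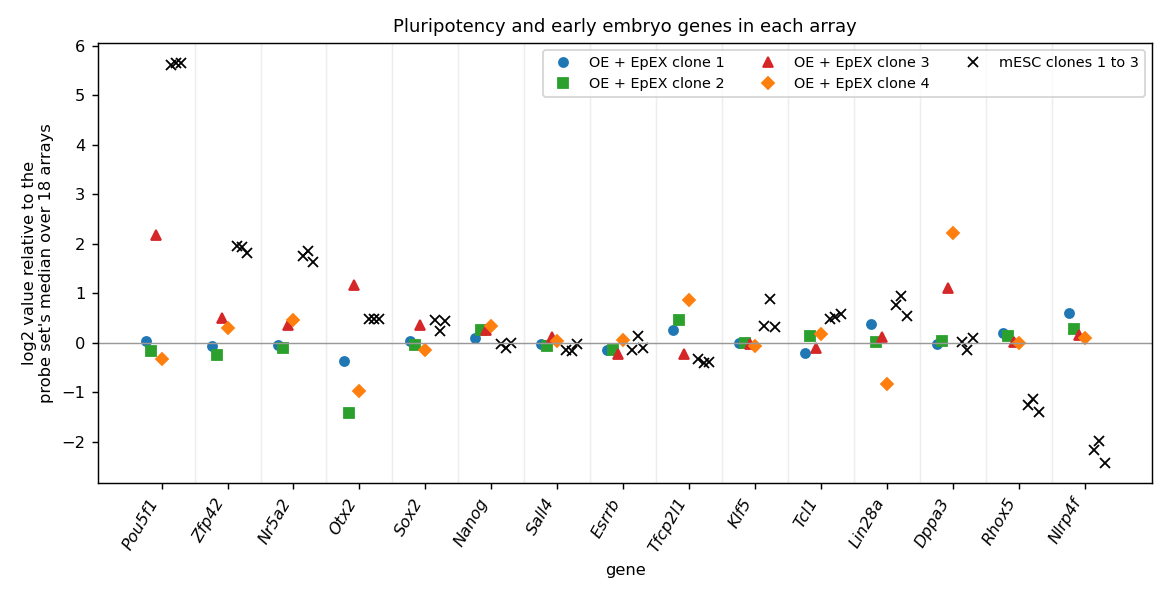
Log2 values of 15 pluripotency and early embryo genes, 1 probe set a gene, relative to the probe set's median over 18 arrays. Coloured points are the 4 OE + EpEX clones and crosses the 3 mESC clones. Pou5f1, Zfp42 and Nr5a2 lie lower in all 4 clones, Rhox5 and Nlrp4f higher, and clone 3 (triangles) stands apart in Pou5f1 at 2.18.

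Otx2, a homeobox gene of the step out of the naive state, varied widely between clones. It was at −0.38, −1.43, 1.17 and −0.98 in OE + EpEX clones 1 to 4 and 0.48, 0.48 and 0.48 in mESC clones 1 to 3. The mESC clones were alike, and clone 3 lay above them while the other 3 lay below. With all clones the difference was −0.88 (limma adjusted p = 0.318), and without clone 3 it was −1.41 (limma adjusted p = 0.00459), a call.

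Of 12 measured naive pluripotency factors, 1 was higher (Nlrp4f) and 1 lower (Zfp42), which is 16.7% called against 9.61% of the named genes. Nlrp4f, of a family of NLR genes used in oocytes and early embryos, was at 0.59, 0.27, 0.16 and 0.10 in OE + EpEX clones 1 to 4 and −2.16, −1.99 and −2.43 in mESC clones 1 to 3. All clones lay far above mESCs, 2.48 log2 units on average (SE 0.148, limma adjusted p = 3.14e-05), under all 15 alternatives. Esrrb, the orphan receptor that sustains self-renewal, differed by −0.08 (limma adjusted p = 0.727), and Tfcp2l1, a target of STAT3 signalling in mESCs, by 0.72 (limma adjusted p = 0.066). Klf5 and Tcl1, which support mESC growth, passed the adjusted p but not the fold, at −0.53 (limma adjusted p = 0.0402) and −0.52 (0.0201).

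Among 24 genes of the Dppa family and other early embryo genes, 1 was called, where 9.61% of the named genes were. Rhox5, an X-linked homeobox gene, was at 0.20, 0.15, 0.01 and −0.01 in OE + EpEX clones 1 to 4 and −1.26, −1.14 and −1.39 in mESC clones 1 to 3. It was higher by 1.35 (SE 0.102, limma adjusted p = 0.000121), with no overlap, and with quantile normalization it fell just short of 2-fold (0.99). Dppa2, Dppa4, Dppa5a and Gdf3 had log2 differences between −0.10 and 0.23 at all of their probe sets. Lin28a, an RNA-binding protein that blocks let-7, was at 0.38, 0.02, 0.11 and −0.84 in OE + EpEX clones 1 to 4 and 0.75, 0.94 and 0.55 in mESC clones 1 to 3, with clone 4 lowest (difference −0.83, limma adjusted p = 0.0698). Dppa3 (Stella) reached 1.12 in clone 3 and 2.23 in clone 4 and stayed near 0 elsewhere (difference 0.85, limma adjusted p = 0.308).

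Germline and chromatin genes went both ways. Stk31, a kinase of male germ cells, was at −0.01, 0.19, −0.67 and 0.03 in OE + EpEX clones 1 to 4 and −1.53, −1.40 and −1.87 in mESC clones 1 to 3, a difference of 1.48 (SE 0.205, limma adjusted p = 0.00238), and its other probe set was called too. Dnmt3b, a de novo DNA methyltransferase, was higher by 1.03 (limma adjusted p = 0.0493), but at 1.04, 0.58, 0.70 and −0.26 in clones 1 to 4 its clones overlapped with mESCs (−0.58, −0.13 and −0.82). Both of its probe sets lost the call without clone 1, 2 or 3, without mESC clone 1 or 3, with robust eBayes and with quantile normalization. These were the 2 called of the 16 measured members of the chromatin and germline list (12.5%, against 9.61% of the named genes). Outside that list, Sohlh2, a germ cell bHLH factor, was at −0.42, −0.12, −0.41 and −0.29 in OE + EpEX clones 1 to 4 and 1.03, 0.92 and 1.16 in mESC clones 1 to 3 (difference −1.35, limma adjusted p = 0.000173), and Rhox13 differed by −1.27 (limma adjusted p = 0.00196). Dazl, an RNA-binding protein of germ cells, was lower by less than 2-fold (−0.84, limma adjusted p = 0.00926).

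Of 12 measured epithelial junction genes, 3 were called, all higher, where 7.28% of the named genes were called higher. Cldn4, a tight junction claudin, was at 0.80, 0.39, 0.09 and 0.11 in OE + EpEX clones 1 to 4 and −1.35, −1.92 and −1.04 in mESC clones 1 to 3. Its groups did not overlap (difference 1.78, SE 0.231, limma adjusted p = 0.00172), and it was called in all 15 alternatives. Pard6b, of the Par polarity complex, was higher by 1.15 (limma adjusted p = 0.00183), and Mpzl2, an adhesion protein, by 1.00 (limma adjusted p = 0.0321). Mpzl2 in clone 3, at −0.99, lay close to the mESC clones (−1.09, −1.31 and −1.22), and the call was lost without clone 1, 2 or 4, without any 1 mESC clone, with quantile normalization and in the fit of all 18 arrays.

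Epcam itself, transfected into these clones, was at 0.26, 0.09, 0.53 and 0.39 in OE + EpEX clones 1 to 4 and −0.53, −0.73 and −0.38 in mESC clones 1 to 3. All clones lay above all mESC clones, by 0.86 on average (SE 0.131, limma adjusted p = 0.00367). This is 1.82-fold and so short of the 2-fold that a call required. Whether this probe set also reads the transfected EpCAM is not given in the sources used here. E-cadherin (Cdh1), the adherens junction protein, was at −0.06, −0.01, 0.36 and 0.18 in OE + EpEX clones 1 to 4 and 0.42, 0.29 and 0.54 in mESC clones 1 to 3, a difference of −0.30 (limma adjusted p = 0.168). Dsp, a desmosome protein, differed by −0.89 (limma adjusted p = 0.0259), also short of 2-fold.

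A list was drawn up for LIF, STAT3, HIF2α, receptor tyrosine kinase, Nodal and BMP signalling. Of its 22 measured genes 2 were called (9.09%, against 9.61% of the named genes). Stat3, Lif, Lifr and Epas1, the gene of HIF2α, were not among the 22, so this count does not describe those pathways. The measured genes were for the most part ligands, receptors and secreted modulators of growth factor, Nodal, BMP and Wnt signalling. Sfrp2, a secreted antagonist of Wnt ligands, was at −0.04, −0.07, 0.12 and −0.09 in OE + EpEX clones 1 to 4 and 2.78, 2.55 and 2.61 in mESC clones 1 to 3. The clones lay within 0.25 log2 units of each other, clone 3 included, and all lay far below mESCs (difference −2.66, SE 0.101, limma adjusted p = 2.83e-06, 6.33-fold lower). Sfrp2 is also a fibroblast gene, with a MEF mean of 6.22. The call was lost in the fit of all 18 arrays (limma adjusted p = 0.178). There the difference was the same and the SE was 1.13, with an SD of 4.04 between the MEF arrays at this gene. Id3, a target of BMP signalling that helps hold mESCs in self-renewal, was higher by 1.26 (limma adjusted p = 0.0372), from −0.74 in clone 3 to 0.66 in clone 1, and that call was lost without clone 1 or 2, without mESC clone 1 or 3, with robust eBayes, with quantile normalization and in the fit of all 18 arrays. Egfr, the receptor of epidermal growth factor, was higher by 0.83 (limma adjusted p = 0.0265), short of 2-fold. Nodal was higher by 0.67 (limma adjusted p = 0.0295), also short of 2-fold.

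**Figure D2:**
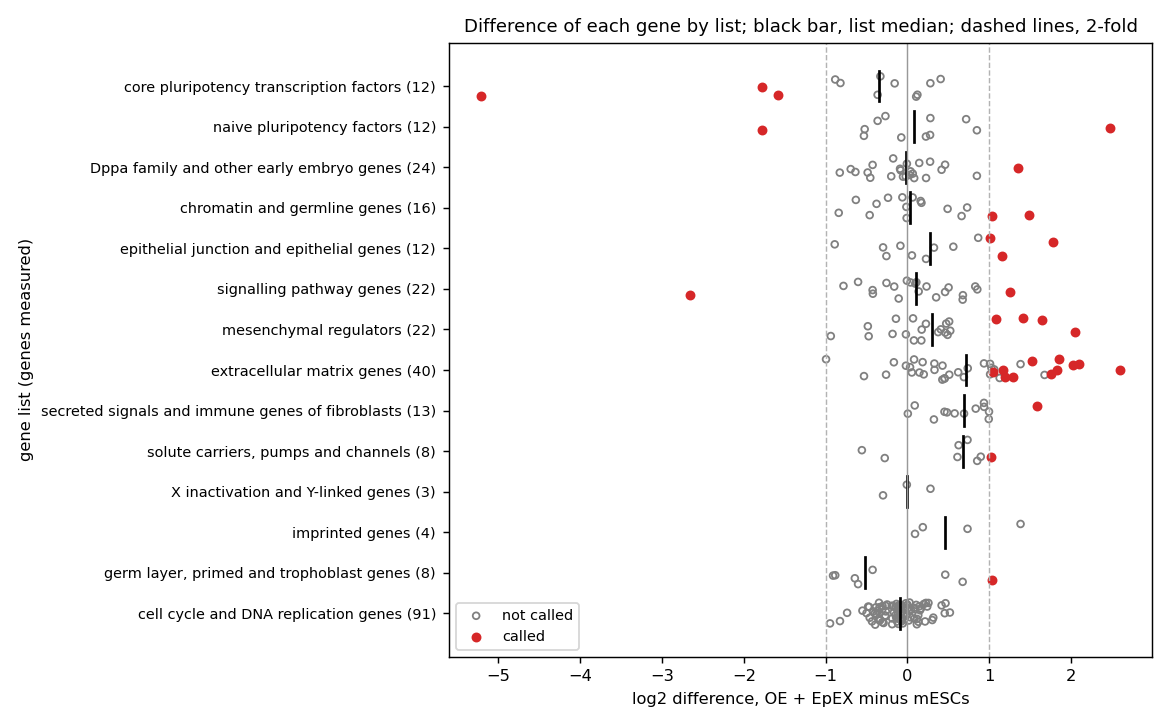
Log2 difference of each measured gene, OE + EpEX minus mESCs, by gene list, with the number of genes measured beside the list's name. Filled points are called, open points are not, black bars are list medians and dashed lines 2-fold. The extracellular matrix list holds 11 of the called genes, all higher, and 3 core pluripotency factors lie lower.

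Genes of the extracellular matrix, which fibroblasts secrete, were the longest list apart from the cell cycle. Of 40 measured, 11 were called (27.5%), all higher, where 7.28% of the named genes were called higher. The list's median log2 difference was 0.71, against 0.08 over the named genes and −0.05 over all probe sets. The probe sets of the list below MEFs are nearer in kind, with a median of 0.22 and 47 of 462 called higher. Among them were the collagens Col6a3 (1.86, limma adjusted p = 0.000561), Col5a2 (1.75, 0.00131) and Col1a1 (1.29, 0.0418), the small proteoglycans Ogn (2.60, 0.0137) and Bgn (1.52, 0.00109), and Postn, a matrix protein of fibroblasts (1.83, 0.00722). Serpinf1, a secreted serpin, was at 0.44, 0.77, 0.47 and 0.92 in OE + EpEX clones 1 to 4 and −1.30, −1.36 and −1.45 in mESC clones 1 to 3. It had the clearest difference of the list, 2.02 (SE 0.133, limma adjusted p = 5.67e-05), with 4 clones alike, and was called in all 15 alternatives. Timp2, an inhibitor of matrix metalloproteinases, Cyr61, Tnc and Mgp were the remaining called genes, with differences of 2.10, 1.17, 1.19 and 1.04. In the fit of all 18 arrays the calls of Col6a3, Serpinf1 and Cyr61 were kept and those of the other 8 were lost. The fit of 15 arrays, without MEFs, also lost those of Ogn, Timp2, Postn, Bgn, Col1a1, Tnc and Mgp. With quantile normalization those of Timp2, Postn, Col1a1, Tnc, Mgp and Cyr61 were lost. Col1a1 and Mgp kept their calls in 4 of 15 settings each and Cyr61 in 6. Col1a1 was lost without clone 1 or 4 and without any 1 mESC clone, Mgp without any 1 of clones 1, 3 and 4 or mESC clones 1 and 2, and Cyr61 without clone 3 or 4 or any 1 mESC clone. Timp2 was lost without clone 1 and without any 1 mESC clone, and Ogn without mESC clone 1 or 2.

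Clone 4 was the highest clone in most of these genes. Ogn was at 0.79, 0.53, 0.68 and 2.96 in OE + EpEX clones 1 to 4 and −1.38, −1.71 and −1.01 in mESC clones 1 to 3, so that clone 4 lay more than 2 log2 units above its sisters, which in turn lay above all mESC clones. Col3a1, the type III collagen, was at 0.27, −0.09, 0.96 and 2.67 in OE + EpEX clones 1 to 4 and −0.78, −0.95 and −0.44 in mESC clones 1 to 3, and its difference of 1.68 did not pass the test (limma adjusted p = 0.0871) until clone 4 was left out (1.10, 0.0249). Of the 47 higher probe sets on the list below MEFs, clone 4 was the highest clone at 40, clone 1 at 4, clone 2 at 2 and clone 3 at 1. Over these 47 the median value was 1.05 in clone 4 and 0.14 to 0.51 in the other clones. Without clone 4 (1432 probe sets called in all, 3.18%), 9 of the 40 matrix genes were called and the median difference was 0.62, and without clone 3 it was 11 and 0.70. In mESC clones 1 to 3 the list's median was −0.32, −0.43 and −0.27. Fewer fibroblast cells in the sample and less RNA per cell cannot be told apart in arrays of whole samples, and the part of feeder cells in these values was not tested.

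**Figure D3:**
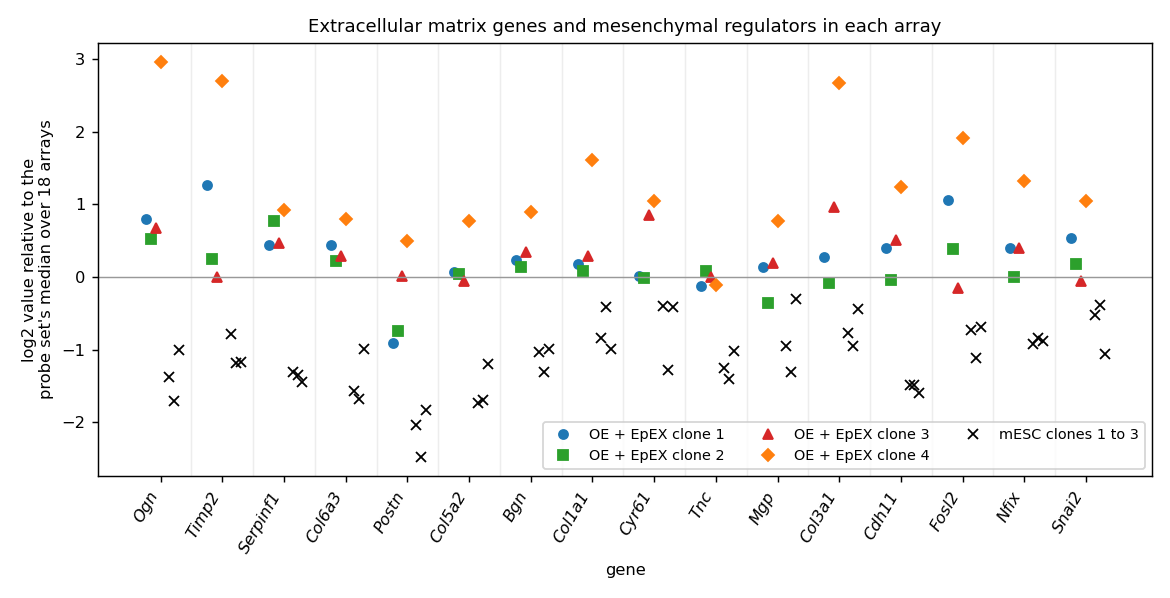
Log2 values of 12 extracellular matrix genes and 4 mesenchymal regulators, 1 probe set a gene, relative to the probe set's median over 18 arrays, in the 4 OE + EpEX clones (coloured points) and the 3 mESC clones (crosses). Clone 4 (diamonds) is the highest clone in all but Tnc, and reaches 2.96 in Ogn, while mESC clones lie below 0 throughout.

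Mesenchymal regulators were called for 4 of 22 measured genes (18.2%), all higher, where 7.28% of the named genes were called higher. On the list below MEFs 47 of 462 probe sets were called higher. The median log2 difference was 0.30 for these regulators and 0.22 on that list. Cdh11, the cadherin of mesenchymal cells, was at 0.39, −0.04, 0.51 and 1.24 in OE + EpEX clones 1 to 4 and −1.49, −1.49 and −1.59 in mESC clones 1 to 3 (difference 2.05, SE 0.248, limma adjusted p = 0.00123). Fosl2, an AP-1 subunit, was higher by 1.65 (limma adjusted p = 0.0318), Nfix by 1.41 (0.00895) and Snai2, a repressor of Cdh1, by 1.08 (0.0272) at 1 of its 2 probe sets. Without clone 4 the count was 3, since Snai2 fell short of 2-fold. In the fit of all 18 arrays Cdh11, Fosl2 and Snai2 were not called, and in that of 15 arrays Cdh11 was not. Fosl2 was also lost without clone 1 and without any 1 mESC clone, and Snai2 without clone 1 or mESC clone 1 or 3. Prrx1, a homeobox gene of limb mesenchyme, was called at 1 of its 3 probe sets (1.53, 0.00345). It is not the probe set that stands for Prrx1 in the list, and its call was lost in the fits of 15 and of 18 arrays. Twist1, Twist2 and Zeb2 were not called, with log2 differences of 0.07, 0.47 and −0.47. Ebf1, a factor of mesenchymal and B lineage cells, went the other way at 1 of its 3 probe sets, which was at −0.42, −0.18, 0.02 and −0.04 in OE + EpEX clones 1 to 4 and 1.51, 1.33 and 1.07 in mESC clones 1 to 3 (difference −1.46, limma adjusted p = 0.000418). In the fit of all 18 arrays that call was lost (limma adjusted p = 0.115). The probe set that stands for Ebf1 in the list differed by −0.94 and was not called.

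Among 13 measured secreted signals and immune genes of fibroblasts, Cxcl1 was called, at 1.00, 0.16, 0.56 and 2.11 in OE + EpEX clones 1 to 4 and −0.78, −0.63 and −0.45 in mESC clones 1 to 3 (difference 1.58, limma adjusted p = 0.0291), 1 of 13 where 9.61% of the named genes were called. That call was lost in the fits of 15 and of 18 arrays, without clone 1 and without any 1 mESC clone. Of 8 germ layer, primed and trophoblast genes 1 was called (Dnmt3b), or 12.5% against 9.61% of the named genes. None was called by limma of 4 imprinted genes, of which 2 had an unadjusted p under 0.05, and of 3 X inactivation and Y-linked genes, of which 1 had. The methods' t-test after adjustment also called 0 in both. No gene of the 2-cell-like state list and of the contractile list had a symbol here. Of 91 cell cycle and DNA replication genes none was called by limma, where 9.61% of the named genes were. By limma 13 of them passed the adjusted p but not the fold. None was called by the methods' t-test after adjustment. Of the 91, 32 had an unadjusted limma p under 0.05, against 301 of the 687 named genes. Their log2 differences ran from −0.95 to 0.52. The furthest was Ttk, a spindle checkpoint kinase, at −0.95 (limma adjusted p = 0.00113), which was called without clone 3 (−1.02).

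Genes outside these lists held the widest difference upwards. The transcript 2210409E12Rik was at 0.08, 0.38, −0.26 and 0.58 in OE + EpEX clones 1 to 4 and −4.02, −3.72 and −3.97 in mESC clones 1 to 3, 17.1-fold higher (log2 difference 4.10, SE 0.189, limma adjusted p = 1.06e-05). Mep1b, a membrane metalloprotease, was higher by 2.29 (limma adjusted p = 0.00198), and 2410024N13Rik by 2.15 (0.00081). Vgll3, a cofactor of TEAD factors, was higher at both probe sets, by 2.70 (limma adjusted p = 0.00858) and 1.92 (0.0392). Pmp22, a membrane protein of myelin and of fibroblasts, was higher by 2.26 (0.0103), and Ptn, a secreted growth factor, by 2.12 (0.00188). Slc9b1, a sodium and proton exchanger, was 3.71-fold lower (0.00123) and Triml1, a gene of the early embryo, 3.14-fold (0.000669). The X-linked Bex2, Bex4 and Armcx3 were 2.83-fold (0.000237), 2.71-fold (0.000299) and 2.43-fold (0.0105) lower. With quantile normalization the calls of Vgll3, Pmp22 and Armcx3 were lost, and in the fits of 15 and of 18 arrays those of Ptn and Armcx3. Armcx3 was also lost without mESC clone 1 or 3, and the weaker probe set of Vgll3 without clone 1, 2 or 4 and without any 1 mESC clone. Of probe sets without a symbol here, the lowest pair differed by −5.09 and −4.93, and the highest pair by 5.75 and 5.26.

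Clone 3 lay nearer to mESCs than its sisters. The root mean square log2 difference from the 3 mESC arrays over all probe sets was 0.411 to 0.429 for clone 3, 0.484 to 0.524 for clone 1, 0.482 to 0.497 for clone 2 and 0.591 to 0.608 for clone 4. Between mESC clones it was 0.258 to 0.290, and between OE + EpEX clones 0.223 to 0.427. No OE + EpEX clone came as near to mESCs as they did to each other. At the 1561 called probe sets clone 3 was the OE + EpEX clone nearest to the mESC mean at 908 (58.2%), clone 2 at 279, clone 4 at 243 and clone 1 at 131. Clone 4 was the furthest at 824 (52.8%).

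How far clone 3 had moved was measured at the 1961 probe sets (4.35%) called without it, as the share of the way from the mean of clones 1, 2 and 4 to the mESC mean. The median position was 32.6%, with the outer deciles at −8.56% and 79.5%, and 1580 of the 1961 (80.6%) lay between the ends. Measured in the same way at the probe sets called without each of them, clone 1 stood at −1.52%, clone 2 at 3.16% and clone 4 at −13.0%. With clones 1 and 2 alone as the other end, clone 3 stood at 28.7%. The probe sets thus ranged widely about the median. At the probe sets chosen for clone 3, KE + EpEX clone 4 stood at 32.4%, the other KE + EpEX clones at −4.46% to 6.82% and the OSKM clones at 15.1% to 18.2%.

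**Figure D4:**
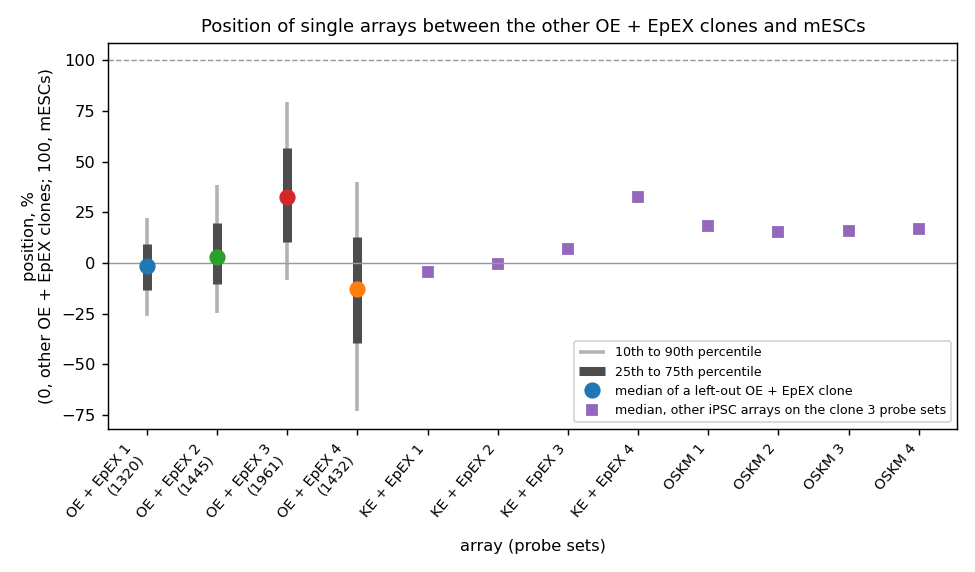
Position of each left-out OE + EpEX clone between the mean of the other clones (0%) and the mESC mean (100%), over the probe sets called without it (number in brackets), as median with percentile ranges, and medians of the KE + EpEX and OSKM arrays at the clone 3 probe sets. Clone 3 stands at 32.6%, level with KE + EpEX clone 4 at 32.4%, and the other 3 OE + EpEX clones lie between −13.0% and 3.16%.

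Among the named genes the position of clone 3 differed from gene to gene. At the 107 named probe sets called without clone 3 its median position was 31.2% (quartiles 8.24% and 56.9%), 31.7% on the list above MEFs and 31.2% on the list below. It lay nearer to mESCs than to its sisters at 37 of the 107 and lay between the ends at 89. In Gm8267, a predicted gene, clone 3 at −1.87 lay among the mESC clones (−2.51, −1.80 and −2.81) while its sisters stood at 0.49, 0.52 and 0.52. At 1 probe set of Vgll3 clone 3 was at −1.41 against 0.82, 0.28 and 1.02 in its sisters, near the mESC values of −1.85, −1.44 and −1.92. At the other, clone 3 at −1.08 lay between its sisters (0.93, 0.23 and 1.40) and the mESC clones (−2.45, −2.02 and −2.51). In Pmp22 it was at −1.02, between its sisters (1.05, 0.45 and 0.90) and the mESC clones (−1.91, −2.08 and −1.75). In Sfrp2, Cldn4 and Serpinf1, by contrast, clone 3 kept to its sisters. In Dcn, a matrix proteoglycan, clone 3 at 1.60 was the highest clone and so lay furthest from mESCs (−1.06, −0.72 and −0.77).

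Leaving out clone 3 raised the calls to 1961, of which 1510 were shared with the 1561 of all clones, 451 were gained and 51 lost. All 451 gained probe sets had the same sign as before. At 1210 of the 1561 calls (77.5%) the difference was larger without clone 3, against 633 without clone 1, 759 without clone 2 and 425 without clone 4. Leaving out any other clone lowered the count, to 1320, 1445 and 1432 for clones 1, 2 and 4. Of the named probe sets 24 were gained, 16 higher and 8 lower, and 5 were lost.

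The named calls gained without clone 3 included Otx2, described above. Apobec2, a cytidine deaminase relative, was at −0.27, 0.01, −1.36 and 0.51 in clones 1 to 4 and at a mean of −1.03 in mESCs, and its difference went from 0.75 (limma adjusted p = 0.225) to 1.11 (0.00483). Timp3, an inhibitor of metalloproteinases, went from 1.06 (0.124) to 1.39 (0.017), and in the same way Cdk14, a cyclin-dependent kinase, Adamts1, a matrix protease, and Samd4, an RNA-binding protein, passed the test, with differences of 1.26, 1.36 and 1.34. C1s, a complement protease, had lacked only the fold (0.94, 0.0409) and reached it without clone 3 (1.15). Laptm5, a lysosomal protein, was at −1.10 in clone 3 and −0.01 to 0.69 in its sisters and was called in neither case. The 5 calls lost were both probe sets of Dnmt3b, 1 of Cyr61, that of Mgp and 1 shared by Fthl17 and related predicted genes.

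**Figure D5:**
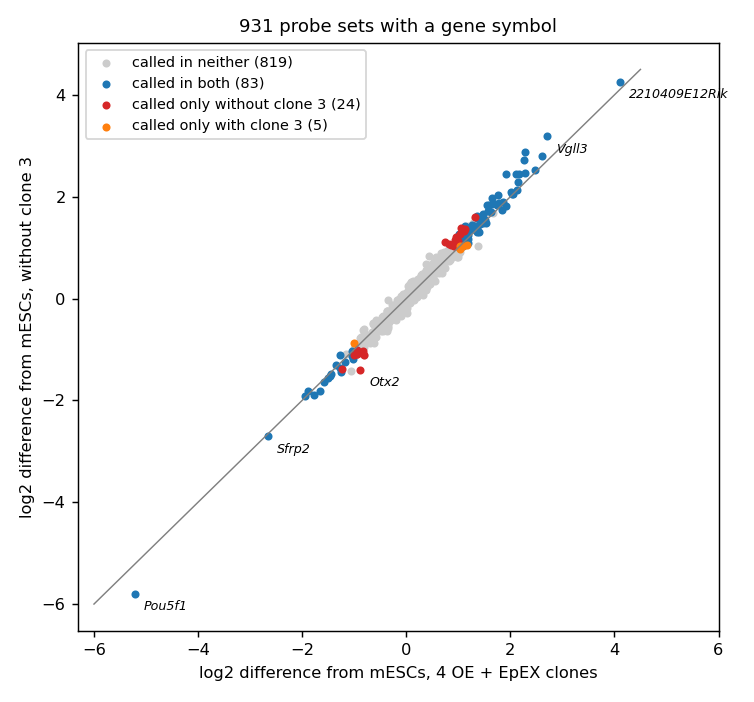
Log2 difference from mESCs of the 931 probe sets with a symbol, with all 4 OE + EpEX clones (x axis) and without clone 3 (y axis), with the line of equality. Red points are the 24 called only without clone 3 and orange points the 5 called only with it. Pou5f1 goes from −5.22 to −5.80.

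Differences of the other iPSC groups from the same mESC arrays stand beside these, and share those arrays with them. For Sfrp2 they were −2.89 in KE + EpEX and −3.06 in OSKM iPSCs, for Nlrp4f 2.02 and 2.42, for 2210409E12Rik 4.33 and 3.96, and for Cldn4 1.59 and 1.47. A direct test of OE + EpEX against OSKM iPSCs called 44 probe sets (0.0977%), 14 higher and 30 lower in OE + EpEX, of which 9 were among the 1561 called against mESCs and 3 had a symbol. These were Kitl, the ligand of the Kit receptor (1.84, limma adjusted p = 0.02), Serpinf1 (1.34, 0.0325) and Pdgfra, a receptor of platelet-derived growth factor (1.13, 0.0461), all higher in OE + EpEX. Without OE + EpEX clone 3 the count was 133, with 95 higher and 38 lower, without clone 2 it was 12, and with these groups alone in the fit it was 105. Against KE + EpEX iPSCs limma called 0 (0.00%), with 3723 probe sets at an unadjusted p under 0.05, and it called 26 without OE + EpEX clone 3 and 31 without clone 4.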

How the data were processed

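Expression was measured on Affymetrix Mouse 430 arrays, 18 in all, of which the 7 of OE + EpEX iPSCs and mESCs entered the comparison. The deposited values are log2 intensities that the authors normalized in GeneSpring GX and shifted to a median of 0 for each probe set. The submitters' processing notes name MAS5 and RMA without their role. Shifting removes the level of a probe set and leaves differences between arrays unchanged. Arrays carry no read depth, and their number limits precision. Deposited lists with symbols were used for names.

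After 64 control probe sets were left out, limma 3.58.1 in R 4.3.3 was fitted to 45037 probe sets over the 7 arrays (5 residual degrees of freedom), with eBayes and Benjamini-Hochberg adjustment. OE + EpEX clones were compared with OSKM and KE + EpEX clones in a fit of the 15 pluripotent arrays, as were the differences of those groups from mESCs. Calls required 2-fold and an adjusted p below 0.05. A gene with several probe sets was represented in lists by the one furthest from MEFs in the KE + EpEX and OSKM arrays. Genes were named by rule. Named were the called members of each list and those nearest to a call, the 12 highest and 12 lowest called probe sets with 1 symbol, the 2 highest and 2 lowest called without a symbol, the 10 whose call changed without clone 3 with the largest shift, and the 10 at which clone 3 lay furthest from its sisters. Other genes, such as Dppa2, Twist1 and Kitl, were named after their values were seen, and some genes that the rule takes in are not reported here. The members and gene lists were chosen with earlier results of these data known, and the cell cycle list after the symbols were seen. Alternatives changed the threshold, the normalization, the filter, the variance model, the arrays in the fit, the test and the clones left out. The fit was tested on simulated data, in which 95% of changes of 1.5 and 96% of changes of 2 log2 units were recovered in this comparison over 45037 probe sets.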

Additional observations from a re-analysis of the deposited data

Results flagged for a closer look

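A clone was marked when its gap to the nearest sister clone, divided by the range of the 4, passed Dixon's critical value for 4 samples. Of 82 probe sets tested, 8 were marked. Chance marks about 1 in 20 groups, but some of the 82 were taken because clone 3 lay far from its sisters or changed their call, so the count cannot be read against that rate. Clone 3 was marked in Pou5f1 at 2.18, in Mpzl2 at −0.99 and in Gm8267 at −1.87, each time on the side of mESCs. Clone 4 was marked in Ogn at 2.96, Col1a1 at 1.61, Col5a2 at 0.77, Bex4 at −0.64 and 1 probe set without a symbol here at 2.37. No value of clone 1 or 2 was marked. Of these 5, Bex4 was the 1 in which clone 4 stood below its sisters.

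In a direct test by limma over 15 arrays, OE + EpEX and OSKM iPSCs differed in 3 named genes. Kitl was higher in OE + EpEX by 1.84, Serpinf1 by 1.34 and Pdgfra by 1.13.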

How the results depend on the processing

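The count of 1561 called probe sets and that of 88 with a symbol stayed within 1.5 times of these values with arrays centred on their medians, the more variable probe sets alone, robust eBayes, the 15 pluripotent arrays and without clones 3 and 4 (1837 and 88, chosen after seeing the data). They moved to 3532 and 165 with a 1.5-fold threshold, to 5239 and 205 with none and to 706 and 41 with quantile normalization. With no fold threshold 2449 were higher and 2790 lower, against 947 and 614. The methods' t-test gave 10165 and 302 unadjusted, and 714 and 37 after Benjamini-Hochberg adjustment. The named count was 56 at an adjusted p under 0.01 and 51 with all 18 arrays. Leaving out 1 clone gave 1178 to 1961 and 58 to 107, the lowest named count without mESC clone 3. Replicate numbers did not pair the arrays (correlations of −0.03, −0.03 and 0.04 between same-numbered clones), and a replicate block gave 1459 and 76.

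The distance within OE + EpEX clones, 0.321, was 0.159 as a median absolute difference, 0.407 over the more variable probe sets and 0.421 after quantile normalization. That to mESCs, 0.495, was 0.203 and 0.659 in the former settings, and 0.481 after quantile normalization. That within mESCs, 0.266, was 0.151, 0.309 and 0.215. The position of clone 3 ran from 27.7% to 36.1%. That of clone 4 was −21.9% over probe sets lower in mESCs and −4.25% with clones 1 and 2 alone.

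Against OSKM iPSCs the 44 calls became 335 with a 1.5-fold threshold, 556 with none, 105 with these groups alone and 20 with 18 arrays, and leaving out 1 OE + EpEX clone gave 12 to 133. Against KE + EpEX iPSCs it gave 0 to 31, and the other settings 0. Over the 82 probe sets of the text and 15 settings, 1050 of 1230 outcomes stayed, 159 calls were lost, 20 were gained and 1 difference changed sign, that of Esrrb, which was 0.012 without mESC clone 2 and ran from −0.13 to 0.012 over the clones left out in turn. The causes were not tested.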
